A study of Mus musculus with 6 samples.

Results

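NF-kB is a family of transcription factors, and the genes described here encode 4 of its subunits (Rela, Relb, Nfkb1 and Nfkb2), inhibitory and nuclear IkB proteins (Nfkbia, Nfkbie, Nfkbiz and Bcl3), the ubiquitin editor Tnfaip3 and the adaptor Tifa. They were chosen by gene symbol, as NF-kB subunits and feedback regulators, and all 10 were found among the 23127 genes of the table. They were followed in mouse intestinal stem cells after 1.5 h with interferon gamma (IFNg). Small-intestinal crypts of C57BL/6 mice with an Lgr5-GFP reporter, which marks crypt base stem cells through the gene of an R-spondin receptor, gave the sorted GFP-high cells. The 3 IFNg libraries (6, 2 and 10) came from cells kept with 1 ng/ml IFNg for 1.5 h in medium with EGF, Noggin and R-spondin1, and the 3 untreated libraries (5, 1 and 9) had no treatment per the labels. The labels do not say whether untreated cells stood in the same medium, whether libraries came from separate animals, or how old the mice were, so the p-values reflect variation among these libraries alone, and part of it may be technical. Libraries 6 and 5 are titled GFP1 and the remaining 4 GFP3, and what this tag means is not given.

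In resting cells, NF-kB dimers are held in the cytoplasm by IkB proteins. Receptors of the TNF, interleukin and Toll-like families recruit adaptors and the IKK kinases, IkB is phosphorylated and degraded, and the freed dimers enter the nucleus. Among the genes they switch on are those of IkB-alpha (Nfkbia) and A20 (Tnfaip3), which shut the pathway down again. A slower branch runs through the NIK kinase, the processing of the Nfkb2 precursor and its partner RelB. In the gut lining NF-kB is known for controlling chemokines and cell survival. IFNg signals through its own receptor, and GAS (gamma-activated sequence) elements are DNA motifs of its response genes.

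Depth was 28508762 to 40224497 reads in genes per library, and values below are scaled counts, the authors' read counts divided by 1 size factor per library. A single read was worth 0.853 to 1.05 scaled counts. The IFNg response was present: 14 of 16 control genes of that response rose, with Irf1 33.6-fold higher. Lgr5 was at 2484 to 5309.6 in IFNg libraries and 2801 to 8499 in untreated libraries. The 4 pan-leukocyte markers summed to 47.8 to 71.9 scaled counts in IFNg libraries and 57.9 to 76.2 in untreated libraries. Ptprc was between 11.1 and 41.2 over all 6. B and plasma cell markers summed to 148 to 318 with IFNg and 77.2 to 142 untreated, without overlap. T and NK cell markers summed to 143 to 254 and 114 to 181, and myeloid markers to 1143 to 1374 and 1206 to 1535. Only part of these markers had the mean of 10 scaled counts needed for testing. Tested were 3 of 4 pan-leukocyte, 4 of 7 B and plasma cell, 1 of 11 T and NK cell and 5 of 11 myeloid markers. No tested gene of these lists passed in limma or DESeq2.

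The 10 members did not move as a block. Tifa rose 10.1-fold and was the only member to pass in limma, among 67 genes called higher out of 16095 tested (0.416%). Relb, Nfkbia, Nfkbiz and Bcl3 were 2.21-fold to 7.62-fold higher in mean scaled count with no overlap between the groups, and they missed the threshold in limma (adjusted p = 0.185 to 0.294) but passed in DESeq2. Rela, Nfkb1, Nfkb2, Nfkbie and Tnfaip3 overlapped between the groups and did not pass with either tool. The median log2 change of the members was 0.94, against -0.08 over all tested genes.

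**Figure D1:**
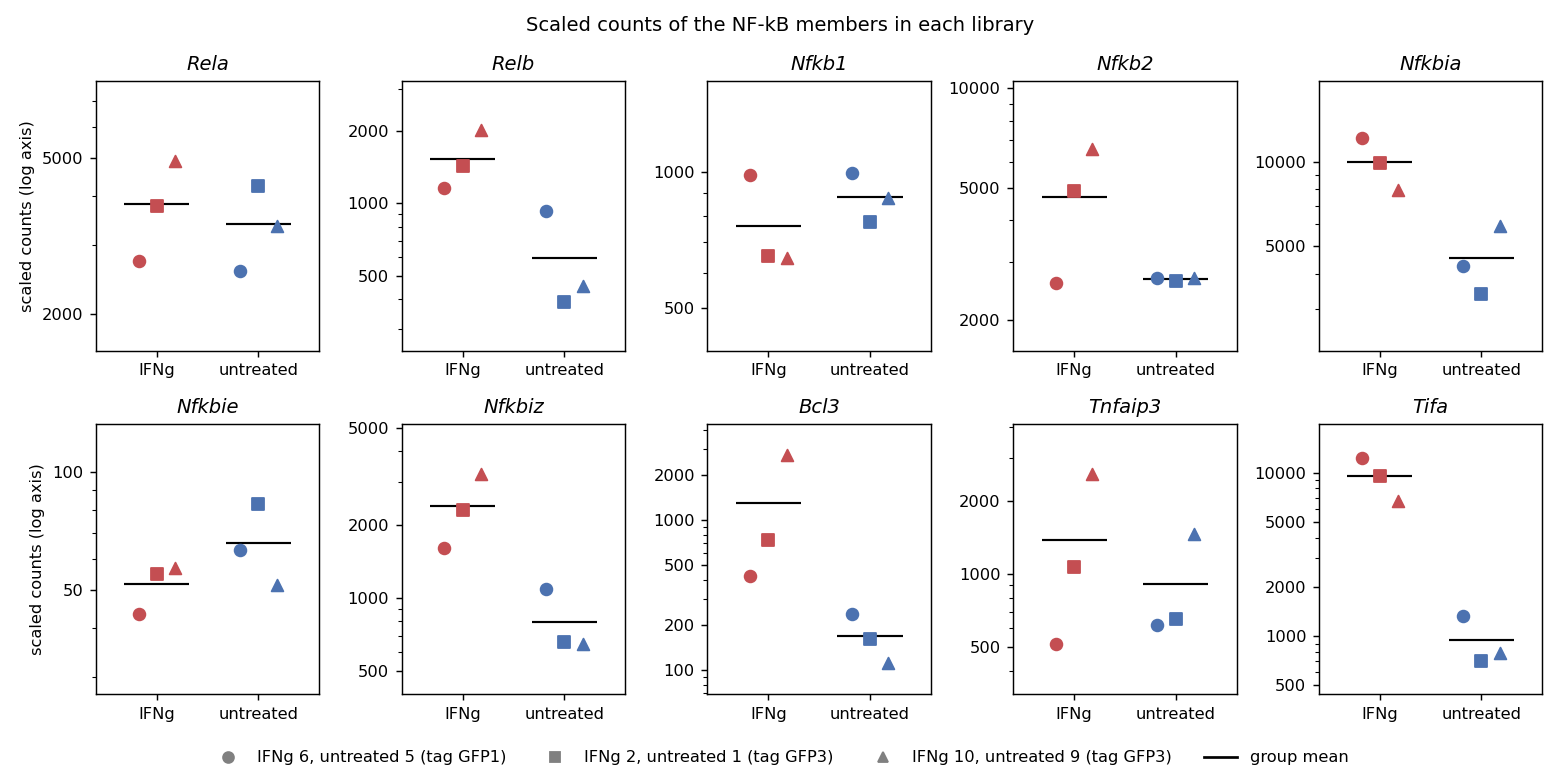
Scaled counts (log axis, its range set for each gene) of the 10 members in the 3 IFNg and the 3 untreated libraries; each point is 1 library, symbols mark neighbouring title numbers and bars are group means. In Tifa, Bcl3, Nfkbiz, Relb and Nfkbia every IFNg library lies above every untreated library, while the other 5 genes overlap.

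The sequences around the start sites of 7 members were in the RefSeq promoter table (build GRCm38.p6, which is mm10), in 11 windows of 300 bases, from 250 bases before to 50 after an annotated start. Windows of Tifa, Nfkbia, Bcl3 and Nfkb2 are shown because Tifa rose, Nfkbia and Bcl3 were the highest-fold inhibitor and nuclear cofactor, and Nfkb2 holds the only GAS match. Capitals mark matches to the kB consensus or to GAS, searched on both strands:
Tifa, chr3:127789622-127789921, plus strand: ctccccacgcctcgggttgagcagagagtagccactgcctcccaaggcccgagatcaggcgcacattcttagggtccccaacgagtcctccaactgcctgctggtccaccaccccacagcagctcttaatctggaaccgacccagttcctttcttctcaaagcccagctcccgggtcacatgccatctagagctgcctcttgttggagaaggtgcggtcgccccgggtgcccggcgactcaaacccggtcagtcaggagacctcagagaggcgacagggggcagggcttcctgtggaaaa
Tifa, chr3:127790407-127790706, plus strand: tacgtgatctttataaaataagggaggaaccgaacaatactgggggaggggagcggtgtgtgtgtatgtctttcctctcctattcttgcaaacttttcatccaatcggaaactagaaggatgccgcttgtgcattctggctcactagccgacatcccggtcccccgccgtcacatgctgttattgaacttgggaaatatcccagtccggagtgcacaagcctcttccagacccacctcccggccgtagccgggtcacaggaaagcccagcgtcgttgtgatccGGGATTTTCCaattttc
Nfkbia, chr12:55492598-55492897, minus strand: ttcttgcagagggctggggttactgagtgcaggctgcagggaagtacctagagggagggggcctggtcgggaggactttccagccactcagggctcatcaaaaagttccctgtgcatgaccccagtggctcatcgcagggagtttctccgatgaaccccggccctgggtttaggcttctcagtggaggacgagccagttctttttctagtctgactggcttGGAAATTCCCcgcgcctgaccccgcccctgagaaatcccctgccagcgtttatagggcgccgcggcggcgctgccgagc
Bcl3, chr7:19822706-19823005, minus strand: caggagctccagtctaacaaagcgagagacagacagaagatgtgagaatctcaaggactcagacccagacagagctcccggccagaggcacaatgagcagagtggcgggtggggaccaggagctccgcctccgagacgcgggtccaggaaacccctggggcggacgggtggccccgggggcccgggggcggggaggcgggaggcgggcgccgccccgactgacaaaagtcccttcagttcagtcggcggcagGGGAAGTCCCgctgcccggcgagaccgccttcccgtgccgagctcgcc
Nfkb2, chr19:46304487-46304786, plus strand: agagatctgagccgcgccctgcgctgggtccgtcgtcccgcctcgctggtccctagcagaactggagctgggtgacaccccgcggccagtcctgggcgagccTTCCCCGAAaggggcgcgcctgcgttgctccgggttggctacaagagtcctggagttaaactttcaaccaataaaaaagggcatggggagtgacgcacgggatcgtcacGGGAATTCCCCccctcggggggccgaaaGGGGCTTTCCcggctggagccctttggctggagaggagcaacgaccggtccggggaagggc

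The kB consensus was present in 8 of the 11 windows, which belong to 6 of the 7 members, and in 8.46% of all 32851 promoter windows of this length. The windows are not independent. Those of Nfkb2 that start at 46305445 and 46305680 overlap and share the match GGGACTTTCC, which is counted in both. In Tifa the match was GGGATTTTCC, with its first base at offset 34 from the downstream start, and the window of the upstream start had none. In Nfkbia it was GGAAATTCCC, with its first base 29 before the start, and in Bcl3 GGGAAGTCCC, with its first base at offset 3. Nfkb2 had 3 kB matches in the window shown, 2 of which overlap each other. Matches were also found in Tnfaip3 (GGGACACCCC and GGAAATCCCC) and in Nfkbie (GGGGGATTCC), members that did not pass with either tool. Rela had no match in its window. The GAS pattern TTCNNNGAA was in 1 of the 11 windows, as TTCCCCGAA in Nfkb2, and in 8.30% of all windows. The interferon-stimulated pattern GAAANNGAAA was in 0 of the 11 and in 3.44% of all. These matches describe letters and were not tested as binding sites.

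Tifa, an adaptor with a forkhead-associated domain that oligomerises with Traf6 below the kinase Alpk1 when bacterial heptose sugars are sensed, lies on mm10 chromosome 3 (127789805 to 127832164, plus strand). It was at 12331, 9565 and 6654 scaled counts in IFNg 6, 2 and 10, against 1334, 709 and 784 in untreated 5, 1 and 9. The lowest IFNg library was thus well above the highest untreated library, and the GFP1 libraries were the highest of both groups. The mean was 9517 ± 2839 with IFNg and 942 ± 341 untreated (SD, n = 3 each). The log2 change was 3.35 ± 0.34 SE (limma adjusted p = 0.00226), and Tifa ranked 31st by p among the genes with a positive change. It passed in all 17 alternatives run, with adjusted p from 2.82e-16 to 0.0206 and log2 changes from 3.14 to 3.63. Within the neighbouring-number pairs the log2 changes were 3.21, 3.75 and 3.08, and the change did not differ between title tags beyond the spread (GFP1 minus GFP3 interaction -0.21, limma adjusted p = 0.904, with 1 GFP1 library per group). Tifa overlaps the genes Ap1ar and Gm43654 on the other strand, and the library kit does not mark strand. Its exons share 0 bases with those of Ap1ar and 105 with those of Gm43654, whose values were 78.5 to 150.03 scaled counts in IFNg libraries and 46.3 to 92.9 in untreated libraries. Ap1ar was at 893, 988 and 3462 in IFNg 6, 2 and 10, against 675, 534 and 393 in untreated 5, 1 and 9. Its groups did not overlap, and its order within the IFNg group was the reverse of that of Tifa.

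Genes on either side of Tifa in its pathway did not pass. Alpk1, the kinase above it, was at 1004 to 1983 scaled counts in IFNg libraries and 993 to 2544 in untreated libraries (log2 change -0.27 ± 0.43 SE, limma adjusted p = 0.930). Traf6, the ubiquitin ligase it engages, was at 2652 to 3778 in IFNg libraries and 2223 to 2932 in untreated libraries (0.28 ± 0.26 SE, limma adjusted p = 0.880). Both genes overlapped between the groups. They were picked as partners of Tifa after its value was seen.

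Nfkbia encodes IkB-alpha, the inhibitor that holds NF-kB dimers in the cytoplasm, and lies on chromosome 12 (55489410 to 55492647, minus strand). Its scaled counts were 12175, 9959.7 and 7929 in IFNg 6, 2 and 10, against 4272, 3396 and 5931 in untreated 5, 1 and 9. All IFNg libraries were above all untreated ones, and, as for Tifa, IFNg 6 was the highest and IFNg 10 the lowest of the treated libraries. The means were 10021 ± 2124 with IFNg and 4533 ± 1288 untreated (SD, n = 3 each), a 2.21-fold difference. It missed the threshold in limma (log2 change 1.16 ± 0.30 SE, adjusted p = 0.286) and passed in DESeq2 (0.0191). Nfkbie, the gene of the related inhibitor IkB-epsilon, was low, at 43.5, 55.0 and 57.0 in IFNg 6, 2 and 10, against 63.2, 82.6 and 51.5 in untreated 5, 1 and 9. The groups overlapped, and its log2 change was -0.32 ± 0.39 SE (limma adjusted p = 0.904). It was a small part of the inhibitor message at 17.0 scaled counts per kb of exon with IFNg and 21.6 untreated, where Nfkbia had 6224 and 2815 per kb.

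Bcl3 and Nfkbiz encode IkB proteins that act in the nucleus as cofactors of NF-kB dimers, Bcl3 mainly with the products of Nfkb1 and Nfkb2, and Nfkbiz (IkB-zeta) on a set of secondary response genes. Bcl3 (chromosome 7, 19808462 to 19822770, minus strand) was at 421, 735 and 2723 scaled counts in IFNg 6, 2 and 10, against 237, 161 and 111 in untreated 5, 1 and 9. All 3 IFNg libraries were above the untreated ones, but IFNg 10 stood far above the others. The ratio of means was 7.62, and 3.41 without IFNg 10. The limma log2 change was 2.54 ± 0.63 SE (adjusted p = 0.271, and 7.21e-04 in DESeq2). Its exons share 161 bases with Gm16175 on the other strand, so those reads cannot be assigned to a strand. Nfkbiz (chromosome 16, 55811375 to 55838899, minus strand) was at 1608, 2284 and 3228 in IFNg 6, 2 and 10, against 1090.3, 657 and 645 in untreated 5, 1 and 9. The groups again did not overlap, and the ends of the order were the same libraries as for Bcl3. The ratio of means was 2.98 and the log2 change 1.56 ± 0.35 SE (limma adjusted p = 0.185, 0.00371 in DESeq2 and 0.0385 in limma without untreated 5).

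Among the subunits, Relb was the one whose groups did not overlap. Relb partners the Nfkb2 product in the slower branch and lies on chromosome 7 (19606217 to 19629438, minus strand). Its scaled counts were 1156, 1434 and 2019.75 in IFNg 6, 2 and 10, against 926, 389.7 and 454 in untreated 5, 1 and 9. Untreated 5, a GFP1 library, came close to IFNg 6, while the GFP3 libraries of the 2 groups were far apart. The log2 change was 1.45 ± 0.39 SE (limma adjusted p = 0.294, 0.0408 in DESeq2, 0.0315 in limma without untreated 5), with a ratio of means of 2.60. Nfkb2, whose precursor is processed to the DNA-binding subunit of that branch, was at 2587, 4901 and 6579 in IFNg 6, 2 and 10, against 2682, 2623 and 2676 in untreated 5, 1 and 9. The 3 untreated libraries were nearly equal, IFNg 6 lay just below them and the other IFNg libraries above. Its log2 change was 0.72 ± 0.35 SE (limma adjusted p = 0.619). In the 4 GFP3 libraries alone it was 1.10 and passed (adjusted p = 0.0315). Nfkb2 exons share 299 bases with Psd and 531 with AC114539.1 on the other strand. Psd was at 83.6 to 219 in IFNg libraries and 95.9 to 179 in untreated libraries.

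Rela and Nfkb1, which form the classical heterodimer, did not pass. Rela, the subunit with the main activation domain, was at 2731, 3777 and 4907 in IFNg 6, 2 and 10, against 2574, 4225 and 3352 in untreated 5, 1 and 9. The groups overlapped and the log2 change was 0.16 ± 0.31 SE (limma adjusted p = 0.940), below 0 without untreated 5 or without IFNg 10. Nfkb1, the precursor gene of its partner, was at 986, 653 and 645 in IFNg 6, 2 and 10, against 993, 774 and 875 in untreated 5, 1 and 9. It overlapped as well, at a log2 change of -0.23 ± 0.29 SE (limma adjusted p = 0.906). Ratios within a library do not depend on the scaling. Per kb of exon, Relb over Rela was 0.335, 0.300 and 0.325 in IFNg 6, 2 and 10, against 0.285, 0.0729 and 0.107 in untreated 5, 1 and 9. Nfkb2 over Nfkb1 was 6.90, 19.8 and 26.8 in the IFNg libraries, against 7.10, 8.91 and 8.04 in the untreated libraries. The first ratio did not overlap between the groups, the second did through IFNg 6, and neither was tested.

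Tnfaip3 encodes A20, which edits ubiquitin chains on signalling proteins and so ends NF-kB activation. It was at 516, 1067 and 2571 scaled counts in IFNg 6, 2 and 10, against 619, 651 and 1461 in untreated 5, 1 and 9. The groups overlapped, and within each group the library with the highest title number was the highest. The log2 change was 0.42 ± 0.57 SE (limma adjusted p = 0.914). Without IFNg 10 it was -0.18, so its sign rested on that library.

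**Figure D2:**
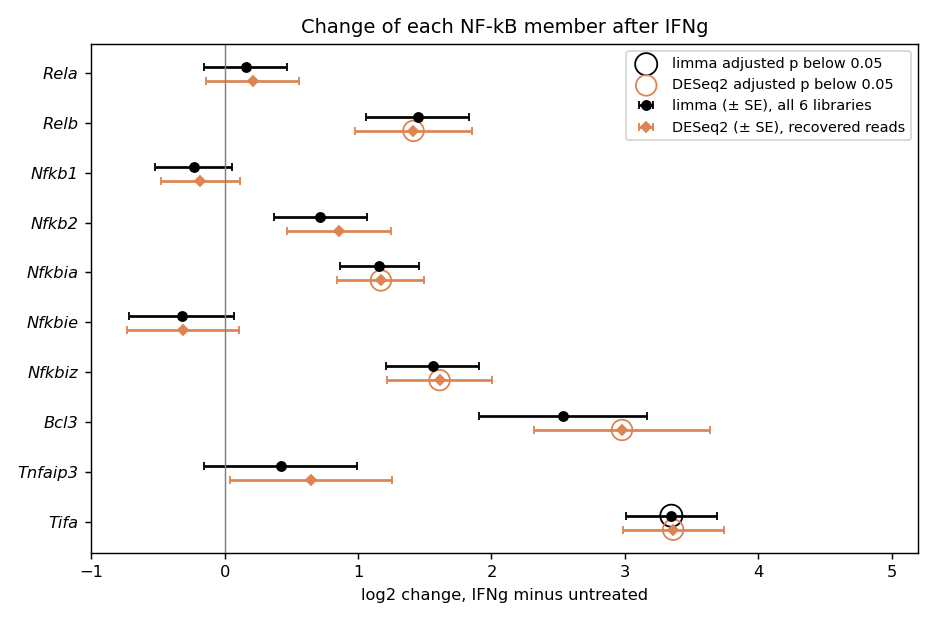
Log2 change (IFNg minus untreated) of the 10 members with its SE, from limma on log2(scaled count + 1) and from DESeq2 on the recovered reads; open rings mark adjusted p below 0.05. Tifa is ringed in both, and Relb, Nfkbia, Nfkbiz and Bcl3 in DESeq2 alone.

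The count of members called depended on the tool and on which libraries entered, and so did the count over all genes. DESeq2 called 5 of 10 members higher, where it called 3.22% of 14212 genes with an adjusted p. EdgeR called Tifa alone, with 0.373% of all genes, and so did limma with the neighbouring numbers as a block (0.46%). Limma on the 4 GFP3 libraries called 5 members, with Nfkb2 in and Nfkbia out, where it called 8.27% of all genes. Without untreated 5 it called Relb, Nfkbiz and Tifa, with 2.27% of all genes. At an unadjusted p under 0.05, 5 of 10 members were higher (8.46% of all genes). The same 5 had every IFNg library above every untreated library, as 8.13% of all genes did. Every IFNg library was below in 0 of 10 members, and the share of all genes with that pattern was not counted.

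Between the IFNg libraries, the members split into 2 library orders. Rela, Relb, Nfkb2, Nfkbie, Nfkbiz, Bcl3 and Tnfaip3 were highest in IFNg 10 and lowest in IFNg 6, an order that 23.9% of all tested genes had. Tifa, Nfkbia and Nfkb1 had the reverse, as 25.9% of all tested genes did. Within pairs, Bcl3 had log2 changes of 0.83, 2.18 and 4.60 in pairs 6 minus 5, 2 minus 1 and 10 minus 9, and Relb 0.32, 1.88 and 2.15. Nfkbia had 1.51, 1.55 and 0.42. Interactions of treatment with the title tag (GFP1 minus GFP3, log2 scale) were -1.69 for Relb (adjusted p = 0.167), -1.50 for Nfkbiz (0.193), -2.57 for Bcl3 (0.301) and -1.15 for Nfkb2 (0.294) in limma, with 1 GFP1 library per group. No gene passed that test over the whole table, so a difference between the tags was not shown.

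**Figure D3:**
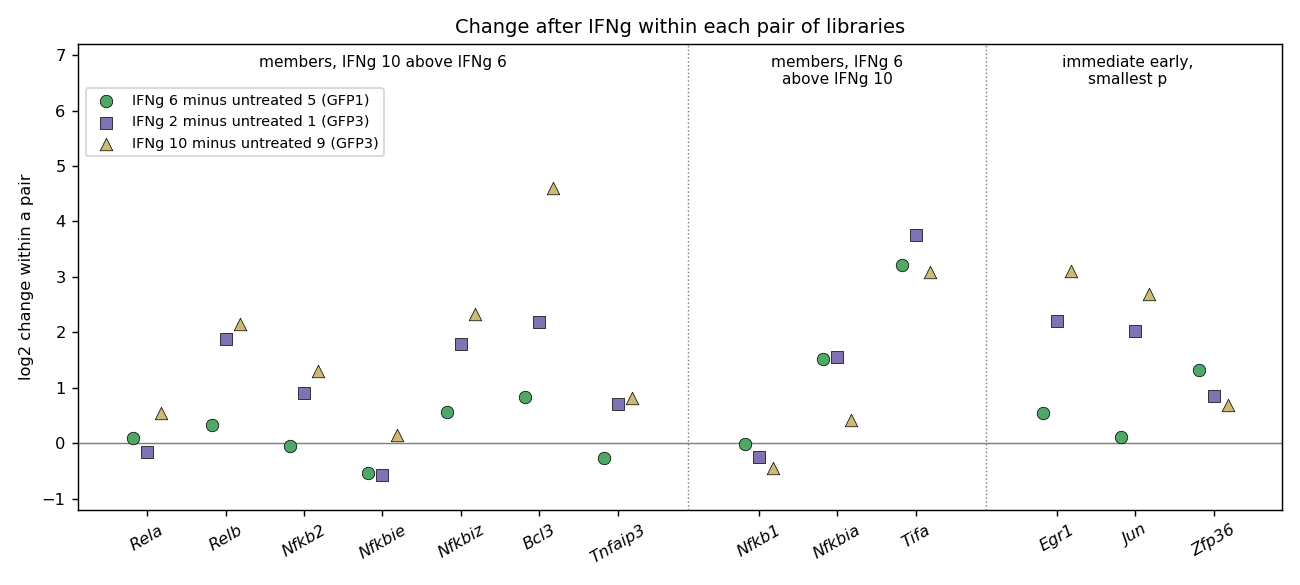
Log2 change of log2(scaled count + 1) within each pair of neighbouring title numbers, for 7 members that were higher in IFNg 10 than in IFNg 6, 3 with the reverse, and the 3 immediate early genes with the smallest p; each symbol is 1 pair. Bcl3, Nfkbiz, Relb and Nfkb2 change least in the GFP1 pair, like Egr1 and Jun, whereas Tifa changes by 3.08 to 3.75 in all pairs.

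Genes of handling stress and the immediate early response also differed between the IFNg libraries. Of 24 such genes tested, 14 were highest in IFNg 10 and lowest in IFNg 6, an order that 23.9% of all tested genes had. The reverse order was seen in 0 of them and in 25.9% of all tested genes. Egr1, an early growth response factor, was at 12601, 28984 and 47443 scaled counts in IFNg 6, 2 and 10, against 8645, 6279 and 5529 in untreated 5, 1 and 9. Jun, a subunit of AP-1, was at 6223, 13276 and 17139, against 5734, 3259.7 and 2641 in untreated 5, 1 and 9. Both had the library order of Bcl3, Nfkbiz and Relb within the IFNg group, and both had untreated 5 as the highest untreated library. Over the 24 genes the sums were 338010 to 468691 scaled counts in IFNg libraries and 288378 to 465650 in untreated libraries. None passed in limma or edgeR. In DESeq2 5 passed, all higher, where 3.22% of all genes with an adjusted p did. At a limma unadjusted p under 0.05 6 were higher, where 8.46% of all tested genes were. At that cutoff 0 were lower, and the share lower over all genes was not counted. Their part in the members' values was not tested. All 8 Paneth cell markers had log2 changes below 0 (median -0.98), where 42.9% of all tested genes were above 0. None of the 8 passed in limma or DESeq2 or had a limma unadjusted p under 0.05, and all overlapped between the groups. They had the same order within the IFNg group as well. Their sums were 24141, 106983 and 201447 in IFNg 6, 2 and 10, against 105296, 164029 and 360262 in untreated 5, 1 and 9. In sorted bulk cells, fewer cells of a type and less RNA per cell cannot be told apart.

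Compared per kb of merged exon, untreated levels ran from Nfkbia (2109 to 3684 scaled counts per kb) through Rela (838 to 1375), Nfkb2 (572 to 585) and Tifa (222 to 417) to Nfkbie (16.9 to 27.1). Nfkbia, Rela, Nfkb2 and Tifa did not overlap with each other. The lowest Tifa library was above the highest Nfkbiz library at 217 and below the highest Relb library at 238, so Tifa and Relb overlapped. Nfkbiz, Relb and Tnfaip3 overlapped with each other, as Tnfaip3 and Nfkb1 each did with Bcl3. With IFNg, Nfkbia remained first at 4925 to 7562 per kb, and Tifa came second at 2080.1 to 3855, above Rela (889 to 1597) in every library. Nfkb2 (564 to 1435) and Bcl3 (170.2 to 1100.0) overlapped with each other.

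The wider pathway gives the setting. The 5 further lists were other subunits and IkB proteins, IKK kinases and their activators, adaptors and ubiquitin ligases, receptors, and deubiquitinases and other brakes. Over all tested genes limma called 0.416% higher, with a median log2 change of -0.08. In the 5 lists, 0 of 84 tested genes fell, where 2 of all 16095 tested genes did. In these lists 3 of the 84 rose, and the median log2 change was 0.05. The 3 stood at the receptor end: Tnfrsf1a, the main TNF receptor (8.65-fold, limma adjusted p = 0.00353), Ripk1, the kinase it recruits (10.0-fold), and Myd88, the adaptor of Toll-like and interleukin receptors. Myd88 was at 9427, 9186 and 7899.99 scaled counts in IFNg 6, 2 and 10, against 2518, 2907 and 2817 in untreated 5, 1 and 9. Its libraries were tight within each group and 3.22-fold apart (log2 change 1.68 ± 0.23 SE, limma adjusted p = 0.0168), with the call lost under a plain limma prior (0.0766) and without untreated 1 (0.0592), untreated 9 (0.110), IFNg 6 (0.0504), IFNg 2 (0.176) or IFNg 10 (0.0788). Ripk1 (limma adjusted p = 0.0124) lost its call with the neighbouring numbers as a block (0.120), with a plain limma prior (0.0693) and without untreated 1 (0.0817), IFNg 2 (0.0650) or IFNg 10 (0.0610).

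Limma called no gene among the IKK kinases and activators, the brakes or the other subunits and IkB proteins. The shares called higher over all genes were 0.416% in limma, 0.373% in edgeR and 3.22% in DESeq2. At a limma unadjusted p under 0.05, 8.46% of all tested genes were higher. Whether the counts of these lists differ from those shares was not tested. Of 14 tested IKK kinases and activators 0 passed in limma and edgeR, 1 in DESeq2, and 3 were higher at an unadjusted p under 0.05. The gene that passed in DESeq2 was Tab3, which links ubiquitin chains to the Tak1 kinase, at 1393, 1736 and 2481 scaled counts in IFNg 6, 2 and 10, against 575, 855 and 492 in untreated 5, 1 and 9 (log2 change 1.54 ± 0.33 SE, limma adjusted p = 0.156, 0.00141 in DESeq2). Chuk, the gene of IKK-alpha, had a log2 change of 0.86 ± 0.34 SE (limma adjusted p = 0.454), and the groups overlapped. Of 17 deubiquitinases and brakes 0 passed in limma, edgeR or DESeq2 and 2 were higher at an unadjusted p under 0.05. These were N4bp1, at 778 to 1037 scaled counts in IFNg libraries and 442.9 to 649.98 in untreated libraries (log2 change 0.77 ± 0.29 SE, limma adjusted p = 0.420), and the phosphatase gene Ppm1b, whose groups overlapped (1.08 ± 0.45 SE, limma adjusted p = 0.502). Tnip1, a partner of A20, was lower in every IFNg library, at 1139 to 1420, against 1519 to 2098 in untreated libraries, without passing (log2 change -0.51 ± 0.26 SE, limma adjusted p = 0.647). Of the 5 other subunits and IkB proteins 0 passed in limma, edgeR or DESeq2 and 1, Nfkbil1, was higher at an unadjusted p under 0.05 (log2 change 1.04 ± 0.40 SE, limma adjusted p = 0.436). The subunit Rel was at 751, 973 and 2110.1 in IFNg 6, 2 and 10, against 703, 1828 and 3210.2 in untreated 5, 1 and 9.

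For the downstream genes too, the share that limma called higher over all tested genes was 0.416%, and the median log2 change -0.08. Of 28 tested genes known as NF-kB targets in epithelium 3 rose, against 25 that did not pass, and the median log2 change was -0.03. They were the chemokine Cxcl10 (84.6-fold), the leukocyte adhesion molecule Icam1 (38.6-fold) and Tnfaip8, a regulator of cell death induced by TNF, and Cxcl10 is also a known direct interferon target. Tnfaip8 was at 5306, 5415 and 4518 scaled counts in IFNg 6, 2 and 10, against 1205, 1946 and 1744 in untreated 5, 1 and 9 (3.11-fold, log2 change 1.66 ± 0.27 SE, limma adjusted p = 0.0446). It missed the threshold in edgeR (0.0690), with TMM scaling (0.0529), with a plain limma prior (0.144) and without untreated 1 (0.0881), untreated 9 (0.172), IFNg 6 (0.0703), IFNg 2 (0.308) or IFNg 10 (0.155). Csf1, a growth factor of macrophages (6.78-fold, limma adjusted p = 0.0584), and the chemokine Cx3cl1 (10.4-fold, 0.117) did not overlap between the groups and passed in DESeq2 and with the replicate block (limma adjusted p = 0.0278 and 5.09e-04). Other classical targets, picked after their values were seen, overlapped between the groups. Sod2 was at 2792 to 3916 with IFNg and 3035 to 3605 untreated, Ccl20 at 243 to 985 and 218 to 782, and Tnf at 153 to 328 and 130 to 587 (limma adjusted p = 0.990, 0.990 and 0.965).

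**Figure D4:**
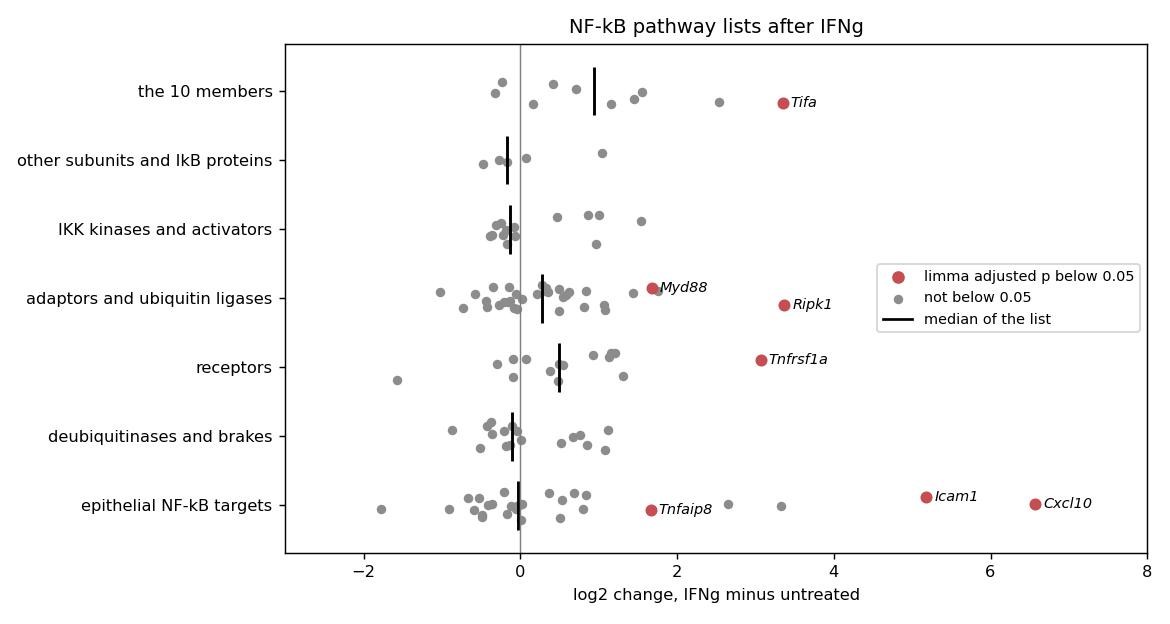
Log2 change (IFNg minus untreated, limma) of every tested gene of the members and of 6 further NF-kB lists; each point is 1 gene, vertical bars are list medians and labelled points have an adjusted p below 0.05. Among the members Tifa is labelled, and the lists of kinases, of other subunits and of brakes hold no labelled gene.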

How the data were processed

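RNA of sorted cells was sequenced in 3 IFNg and 3 untreated libraries, from 2 ng of total RNA with SMART-Seq v4 (12 cycles) and a KAPA preparation (8 cycles), per the labels' protocols. The kit marks no strand and carries no molecular identifiers. The deposited values are scaled counts (a signal: reads per gene over a size factor), as the file's name says. The submitters' processing notes name mm10, DESeq 1.22.1, HTSeq 0.5.3, STAR 2.5.0a and cutadapt 1.6, with no roles. The annotation and strand setting used in counting are not given there. With a tolerance of 0.01 read, 100% of the 138762 values were whole reads once divided by the step of 1 read. The 4 rows for reads given to no gene (for example 18.5% to 25.0% with more than 1 alignment) stayed out of library sizes and tests.

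The main test was limma 3.58.1 (R 4.3.3; trended, robust prior; two-sided) on log2(scaled count + 1), a scale that understates changes of low genes, on the 16095 genes whose mean reached 10, with Benjamini-Hochberg adjustment and a threshold of 0.05. Folds are ratios of mean scaled counts. EdgeR 4.0.16 and DESeq2 1.42.0 ran on recovered reads, and a treatment-by-tag interaction in limma. The fits were also run on simulated counts drawn without pair or tag differences, so those runs do not show how the fits behave with such differences. Alternatives were other pseudocounts, filters, TMM scaling, a plain prior, blocks for pair or tag, the GFP3 libraries alone and each library left out. The members and lists were chosen with earlier results of these data known. Text names all members and, per further list, called genes and up to 3 with the smallest p; others are marked. Deviations from the group means correlated at 0.302 (libraries 6 and 5), 0.404 (2 and 1) and 0.252 (10 and 9), so neighbouring numbers were taken as pairs, from the data and not from the labels. No 2 libraries agreed within sampling noise (chi-square per degree of freedom 62.7 to 505). Coordinates and exon lengths are from GENCODE vM21 (mm10), promoters from RefSeq.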

Additional observations from a re-analysis of the deposited data

How the results depend on the processing

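Tifa passed under each of the 17 alternatives run. No alternative called a member lower, but in the main fit limma called only 2 of all 16095 tested genes lower. The count of members called higher, 1 in limma, was 5 in DESeq2, 5 in the GFP3 libraries alone and 1 to 3 when a library was left out. With the replicate block it was 1, and the block changed no member's call. Further pathway genes called higher, 3 in limma, numbered 5 in DESeq2, 16 in the GFP3 libraries, 1 with a plain prior and 1 to 3 with a library left out. Epithelial targets, 3 in limma, numbered 5 in DESeq2, 5 with the replicate block, 5 with the tag as a block, 6 in the GFP3 libraries and 2 to 4 with a library left out. Over all genes the 67 became 457 in DESeq2, 108 with the tag as a block, 1331 in the GFP3 libraries and 40 to 366 with a library left out. The members' median log2 change, 0.94 in the main fit, ran from 0.83 (without IFNg 10) to 1.07 (without untreated 9). Filters, the plain prior and the blocks left it unchanged by construction, so they do not probe it. When a library was left out, the log2 change ran from -0.046 to 0.38 for Rela, from -0.18 to 0.98 for Tnfaip3 and from -1.07 to 0.028 for Rel, so these signs turned. The cause of these shifts was not tested. Nfkbie, the member with the fewest reads, had 50 to 96 per library, and the effect of depth was not tested.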
